A study of Rattus norvegicus with 36 samples.

Results

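The glucocorticoid response was followed through 6 genes in rat thyroid glands: *Nr3c1*, which encodes the glucocorticoid receptor, and *Fkbp5*, *Tsc22d3*, *Sgk1*, *Zbtb16* and *Klf9*, which the hormone-bound receptor induces in many tissues. The genes were chosen as a functional group, with earlier results of these data known, and no measured value enters the rule. All probes whose accession matched one of the 6 symbols were used, which gave 7 of the 30367 probes that are not controls, 2 for *Nr3c1* and 1 for each other gene. Each member probe lay well above background, by the scanner software's own call, on all 36 arrays.

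The samples came from 36 adult male Sprague Dawley rats, 4 per group and 1 array per rat. In 8 groups the rats received the radioiodine isotope iodine-131 in saline through the tail vein, at 4700, 1300, 760, 340, 260, 170, 88 or 9 kBq, and the controls received saline alone (0 kBq). All rats ate standard chow and were killed 24 h after the injection under pentobarbital, and each thyroid gave its own RNA sample. The irradiated groups were injected in the order of rising activity, the controls were mock-treated last, and the experiment ran during day-time with 4 rats to a cage. Order and activity therefore have the same rank among the 8 irradiated groups and cannot be told apart there, while the controls stand at place 9 of the order and at rank 0 of the activity. Values are given as log2 intensity minus the array's 75th percentile, so 1 unit is a doubling and a negative value lies under that percentile. Values of different probes cannot be set against each other as levels.

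Glucocorticoids (corticosterone in the rat) leave the adrenal cortex in a daily rhythm and in response to stress. The receptor waits in the cytoplasm in a complex with heat shock proteins and co-chaperones, enters the nucleus once the hormone is bound, and acts on response elements in the DNA. *Fkbp5* encodes a co-chaperone that lowers the affinity of the receptor for the hormone and so closes a feedback loop. *Tsc22d3* encodes the anti-inflammatory leucine zipper protein GILZ, *Sgk1* a kinase that regulates ion transport, *Zbtb16* the zinc finger repressor PLZF, and *Klf9* a Krüppel-like zinc finger factor that also responds to thyroid hormone.

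For the members on which the description below turns most, the 250 bases before the gene start are shown, read from RefSeq's table for build GRCr8. They are shown because *Klf9* was the member that varied most between groups relative to its spread, and *Fkbp5* the one with the steepest relation to a list of lymphoid genes. Capitals mark the GC box GGGCGG or its reverse complement CCGCCC, a motif of promoters that is bound by Sp and Krüppel-like factors.
Klf9, chr1:230126396-230126645, plus strand: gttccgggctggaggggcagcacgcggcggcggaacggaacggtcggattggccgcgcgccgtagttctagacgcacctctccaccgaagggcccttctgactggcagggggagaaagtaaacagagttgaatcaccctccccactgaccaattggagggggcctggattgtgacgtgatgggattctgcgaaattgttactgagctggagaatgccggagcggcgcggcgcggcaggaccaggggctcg
Fkbp5, chr20:6543556-6543805, minus strand: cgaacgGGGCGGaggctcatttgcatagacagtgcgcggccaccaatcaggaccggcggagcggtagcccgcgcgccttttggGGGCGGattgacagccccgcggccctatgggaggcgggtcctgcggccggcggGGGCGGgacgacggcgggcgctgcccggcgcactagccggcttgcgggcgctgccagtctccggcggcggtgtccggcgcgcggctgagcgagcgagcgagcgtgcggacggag
The *Fkbp5* stretch holds 3 GC boxes and 76% G and C, and the *Klf9* stretch holds 0 and 63.6%, beside a median of 51.2% G and C over the 33469 promoters of the table. A GC box stood in 30.5% of all those stretches. The palindromic glucocorticoid response element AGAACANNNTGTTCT, found in 0.012% of the stretches, its half-site AGAACA or TGTTCT (17.5% of all), the E-box CACGTG (5.59%) and the D-box TTATGTAA or TTACATAA (0.828%) were in none of the stretches listed for *Fkbp5*, *Tsc22d3*, *Sgk1*, *Klf9* and *Nr3c1*. Both strands were searched, and the half-site lies inside the full element. *Zbtb16* had no entry. The absence of these letters concerns only the 250 bases read.

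The tissue label was checked first, because it bears on every member. A mean over 13 genes of thyroid follicular cells (*Tg*, *Slc5a5*, *Tshr*, *Pax8* and others) ranged from -5.25 to 2.42, with 18 arrays at or below -1.06, 18 at or above 0.93 and none between. *Tg*, which encodes thyroglobulin, ranged from -4.51 to 7.48. In each of the 9 groups, 1 to 3 of the 4 arrays lay below the gap, 3 of them at 9 kBq and at 340 kBq and 1 at 4700 kBq and in the controls. The mean of 5 genes of squamous epithelium ranged from -5.86 to 6.06 over the arrays. Further, 3 arrays (rat 2 at 9 kBq, rat 1 at 88 kBq and control rat 2) were high for a list of 3 lymphoid genes, at 0.79, 0.10 and -0.14, while the other 33 arrays were at -5.16 or lower. In such samples a lower level per cell and a smaller number of the cells that express a gene cannot be told apart.

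None of the 6 member genes was called in any of the 8 comparisons with the controls. A call needed a fold change of 1.5 or more together with an adjusted p-value below 0.01, in 1 limma fit over all arrays, and 0% of the 30367 probes passed them in any comparison. The smallest adjusted p of a member was 0.406 by limma, for *Zbtb16* at 340 kBq. The F test over the 9 groups called 5 probes, or 0.0165% of all, and 0 members, whose adjusted p was 0.989 in each case. The unadjusted p of this F test was under 0.05 for 2.69% of all probes and for 1 member, *Klf9*. At an unadjusted p-value under 0.05, 3 of the 56 member differences were left, all of *Klf9* and all lower than the controls (at 9, 88 and 170 kBq). Of these, only the difference at 9 kBq kept an unadjusted p-value under 0.05 with each rat left out in turn. With control rat 3 left out, the differences at 88 and 170 kBq were -0.62 and -0.60, and neither kept it. Leaving out rat 2 at 88 kBq gave -0.62 there, and leaving out rat 4 at 170 kBq gave -0.47 there, and the p-values again missed that limit. On the squamous list the arrays of these 2 rats stood at 5.79 and 6.06, and that of control rat 3 at 4.22. Over all probes, the shares that were lower than the controls at that unadjusted limit were, from 9 to 4700 kBq, 0.454%, 0.372%, 0.201%, 0.336%, 0.438%, 0.148%, 0.339% and 0.372%, and the shares that were higher were 2.77%, 2.99%, 2.16%, 0.787%, 13.2%, 1.5%, 3.84% and 1.28%. No member was among the higher ones. The median probe itself lay 0.31 above the controls at 340 kBq, 0.22 at 1300 kBq and 0.12 at 170 kBq, and 0.03 to 0.09 above them in the other groups, so single differences described in those 3 groups are also given relative to it.

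**Figure D1:**
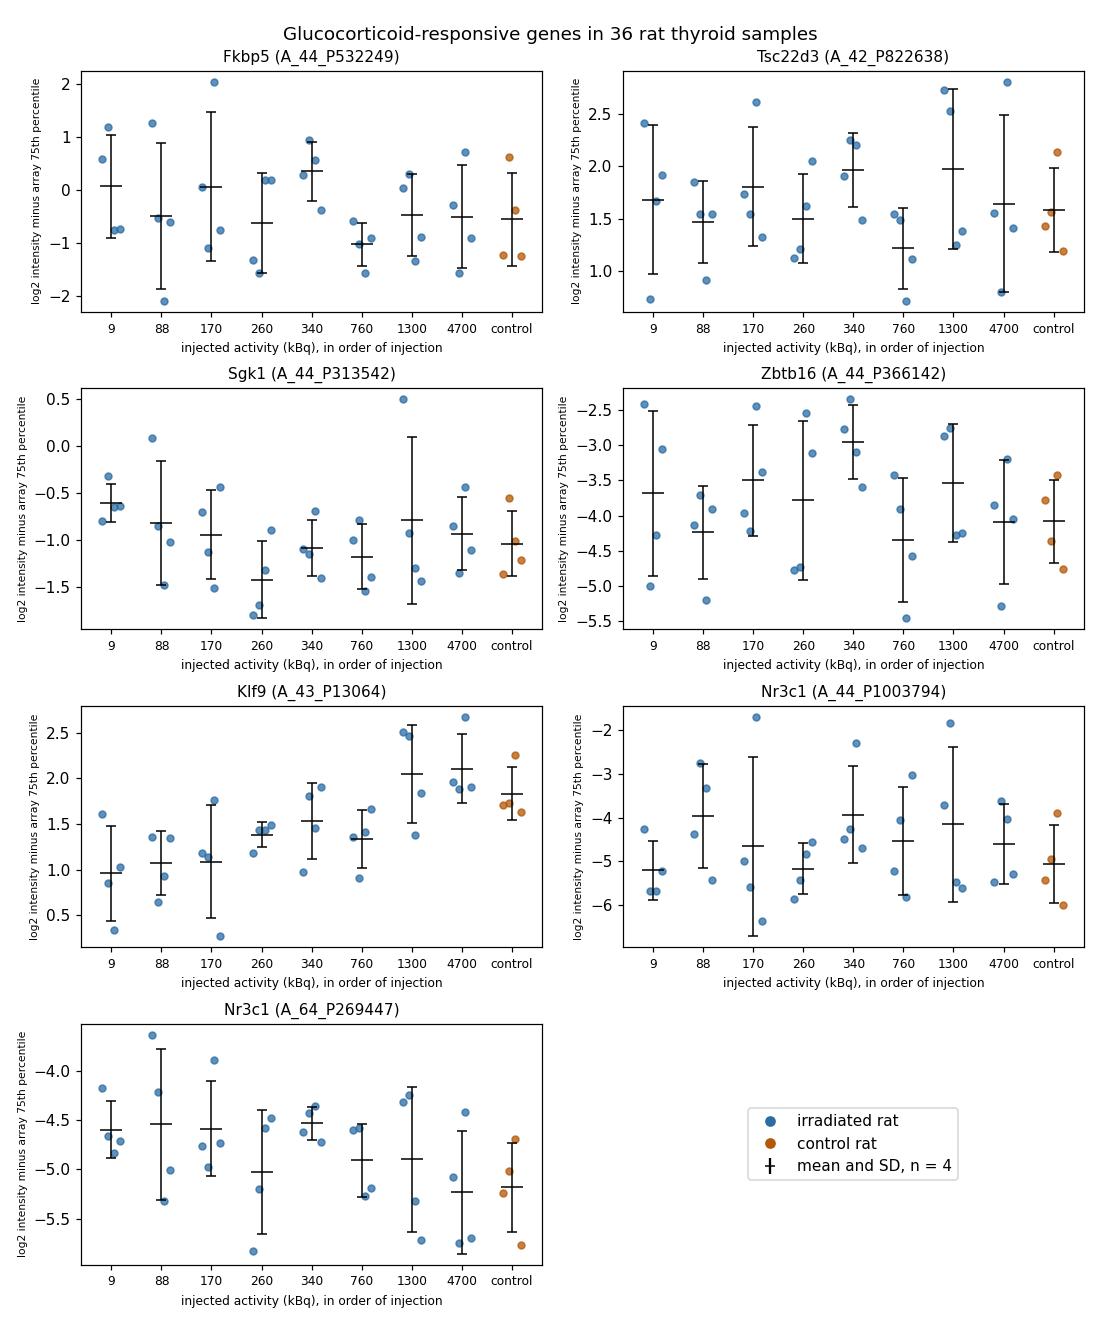
Log2 intensity minus the array's 75th percentile (vertical axes, 1 panel per probe) against the injected activity in the order of injection, with 1 point per rat and the mean and SD of the 4 rats of each group. The group means of Klf9 go from 0.96 at 9 kBq to 2.10 at 4700 kBq. In the other panels no group has all 4 rats above or all 4 rats below the controls.

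*Klf9* was the member whose groups stood furthest apart relative to the spread between rats. The 4 rats had values of 1.61, 0.86, 0.34 and 1.02 at 9 kBq, 1.36, 0.64, 0.93 and 1.34 at 88 kBq, and 1.18, 1.14, 1.76 and 0.27 at 170 kBq. At 260 kBq they had 1.18, 1.43, 1.44 and 1.49, at 340 kBq 0.97, 1.80, 1.46 and 1.90, and at 760 kBq 1.36, 0.90, 1.41 and 1.66. At 1300 kBq they had 2.51, 2.47, 1.38 and 1.83, at 4700 kBq 1.96, 1.89, 2.67 and 1.91, and in the controls 1.71, 1.73, 2.26 and 1.63. All rats at 9, 88 and 260 kBq were below all controls, 3 of 4 were at 170 and 760 kBq, and the groups overlapped at 340, 1300 and 4700 kBq. Over all probes, the shares with all 4 rats below all controls were, from 9 to 4700 kBq, 0.247%, 0.194%, 0.244%, 0.244%, 0.304%, 0.247%, 0.188% and 0.553%, and those with all 4 above were 1.48%, 1.67%, 1%, 0.823%, 4.04%, 1.38%, 1.07% and 0.715%. No other member probe had all 4 rats of a group outside the range of the controls.

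In order of the group means, *Klf9* ran from 0.96 ± 0.52 (SD, n = 4) at 9 kBq over 1.07 ± 0.35 at 88 kBq, 1.09 ± 0.61 at 170 kBq, 1.33 ± 0.31 at 760 kBq, 1.38 ± 0.14 at 260 kBq and 1.53 ± 0.42 at 340 kBq to 1.83 ± 0.29 in the controls, 2.05 ± 0.54 at 1300 kBq and 2.10 ± 0.38 at 4700 kBq. The largest step between neighbours, 0.30 between 340 kBq and the controls, was smaller than the SD of 0.42 within groups. No such step exceeded the SD in any of the 7 member probes, so this measure does not tell them apart. Compared with the controls, the log2 difference was -0.87 at 9 kBq (standard error 0.30, adjusted p = 0.999 by limma, p = 0.0286 by a two-sided exact permutation test), -0.76 at 88 kBq (exact permutation p = 0.0286) and -0.74 at 170 kBq (exact permutation p = 0.114). At 260 kBq the difference was -0.45 (exact permutation p = 0.0286, limma's unadjusted p = 0.149). The exact p of 0.0286 is the smallest that 4 rats against 4 allow. Relative to the median probe, the difference was -0.86 at 170 kBq, -0.61 at 340 kBq and 0.00 at 1300 kBq.

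Slopes were then fitted with limma to the 9 group means, because rats injected together have 1 place in the order between them. *Klf9* had a slope of 0.14 per place in the order of injection (standard error 0.03, unadjusted p = 0.000483, adjusted p = 0.349). Exact permutation of the 9 group means gave p = 0.00149, and over the 7 member probes this was the smallest. The correlation of the 9 means with the place was 0.90 by Pearson and 0.90 by Spearman. By limma's unadjusted p the probe stood at number 42 of 30367, and 3.87% of the probes had a slope above 0 and 6.16% a slope below 0 at an unadjusted p-value under 0.05. Only 4 probes (0.0132%) passed an adjusted p-value of 0.05, and *Klf9* was not among them. Over the rank of activity, with the controls at 0, the slope was 0.09 (standard error 0.04, adjusted p = 0.686, exact permutation p = 0.114), and 0% of the probes passed the adjusted limit. At the unadjusted limit, 4.79% of the probes had a slope above 0 over the rank and 2.92% a slope below 0, with 0 members among them.

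Over the 8 irradiated groups alone, where order and activity are the same, *Klf9* had a slope of 0.16 per place (standard error 0.03, limma's adjusted p = 0.317, exact permutation p = 0.00109), beside 0% of probes called. At the unadjusted limit, 5.48% of the probes had a slope above 0, as *Klf9* had, and 5.65% a slope below 0, as the second *Nr3c1* probe had. The line through these 8 groups, extended to place 9, gave 2.18 with a standard error of 0.14, and the control mean of 1.83 lay 0.35 below it. Extended to rank 0, the same line gave 0.70 with a standard error of 0.14, and the control mean lay 1.13 above it. Neither distance was tested.

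**Figure D2:**
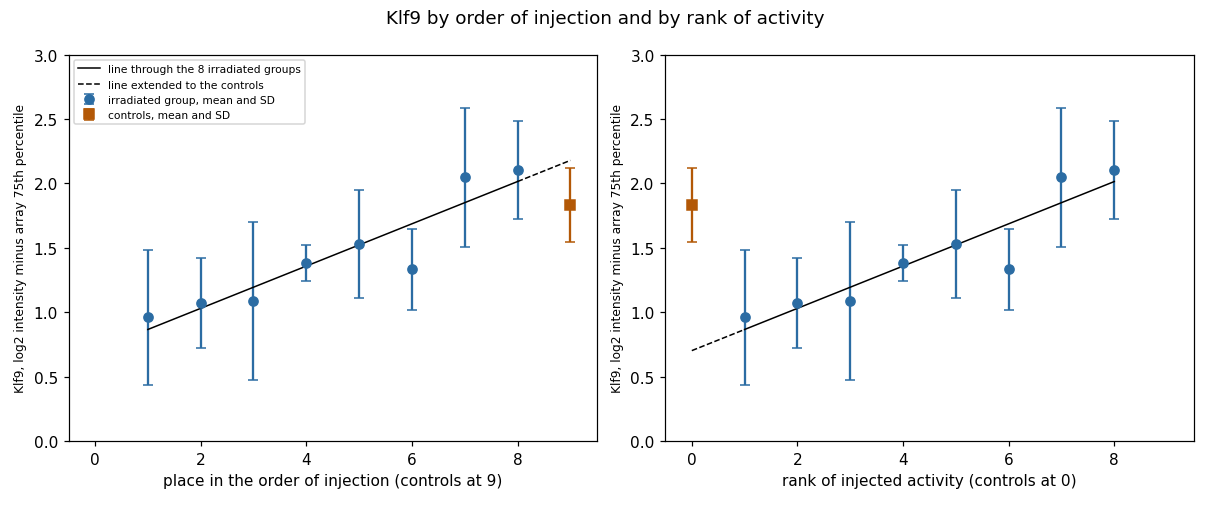
Group means of Klf9 with SD (n = 4; vertical axis, log2 intensity minus the array's 75th percentile) against the place in the order of injection (left) and the rank of activity (right), with the line through the 8 irradiated groups and its extension to the controls. The control mean of 1.83 lies 0.35 below the extended line on the left and 1.13 above it on the right.

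The *Klf9* slope over the order was 0.13 to 0.16 with each rat left out in turn. Treating the 36 arrays as the units, with the group as a random block, left the slope at 0.14 and gave an adjusted p of 0.00347 by limma, the 1 setting in which the *Klf9* slope over the order passed 0.05. In that setting 85 probes passed in place of 4. The correlation within groups was estimated at -0.05 there, so that fit treated the rats of a group as slightly less alike than independent rats. Within the 18 arrays above the gap of the follicular list, the slope was 0.11 (standard error 0.02), and within the 18 below it 0.20 (standard error 0.05). Within the 5 slides it was 0.21, 0.18, 0.20, -0.10 and 0.10, and the slide with a slope below 0 held 6 arrays, none of them beyond place 6. On the 2 scan days it was 0.19 (16 arrays) and 0.10 (20 arrays). The slopes within sides, slides and scan days took single arrays as the units. Their standard errors cannot be compared with that of the slope of group means. The squamous list was lower at later places, with a slope of -0.39 per place of its 9 group means, and stood at between -5.39 and -2.93 at 4700 kBq and between -5.01 and 6.06 at 9 kBq. With the follicular, slow muscle, squamous and adipose lists as covariates, the slope of *Klf9* was 0.13 (adjusted p = 0.182).

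The genes with values most like *Klf9* over the 36 arrays, among 16664 probes well above background on every array, included *Dbp* (Pearson's r = 0.84), which encodes a D-box binding factor under direct control of the circadian clock, and *Pdp1* (0.84), which encodes a phosphatase of the pyruvate dehydrogenase complex. The arrays share their groups and tissue makeup, and within groups the correlations were 0.78 and 0.87. *Dbp* had group means of 2.08, 2.05, 2.14, 2.42, 3.01, 3.80, 4.28 and 5.10 from 9 to 4700 kBq and of 4.77 in the controls. Its slope over the order was 0.43 per place, with an adjusted p of 0.0461 by limma. Of 14 clock genes with a probe, 7 had a slope above 0 and 5 a slope below 0 at an unadjusted p-value under 0.05, and *Dbp* alone passed an adjusted p of 0.05. The shares of all probes at the unadjusted limit were 3.87% above 0 and 6.16% below 0. *Bmal1*, a core clock activator, had group means from 0.46 at 9 kBq to -1.82 at 4700 kBq and of -1.51 in the controls (F test over the groups, adjusted p = 0.00016 by limma). Over the 8 irradiated groups, *Nr1d1* and *Nr1d2*, which encode clock repressors, had slopes of 0.44 (adjusted p = 0.238) and 0.25 (adjusted p = 0.256 by limma).

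*Nr3c1*, the receptor gene, gave different pictures with its probes. The probe with the higher mean, A_44_P1003794, ranged from -6.35 (rat 4 at 170 kBq) to -1.71 (rat 3 at 170 kBq), and its SD within groups was 1.24. The other probe, A_64_P269447, ranged from -5.83 to -3.63, with an SD of 0.54. Both are annotated to the same transcript, and their correlation over the 36 arrays was 0.52. The slope over the order was 0.01 for the first (standard error 0.06, adjusted p = 0.987) and -0.08 for the second (standard error 0.03, unadjusted p = 0.00947, adjusted p = 0.421 by limma). Exact permutation of the 9 group means gave p = 0.941 and p = 0.0125.

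The second *Nr3c1* probe had group means of -4.60, -4.54, -4.59, -5.02, -4.53, -4.91, -4.90 and -5.23 from 9 to 4700 kBq and of -5.18 in the controls, and no step between neighbouring means exceeded the SD. The first 3 groups lay 0.58, 0.64 and 0.59 above the controls (standard error 0.38), with 2, 2 and 1 of the 4 rats above all controls, and the group at 340 kBq lay 0.65 above them (0.34 relative to the median probe), with 3 of 4 rats. At 170 kBq the difference was 0.47 relative to the median probe. With the follicular and lymphoid lists as covariates, its slope over the order was -0.04 in place of -0.08. The genes most like the first probe were *Cox7c* (r = 0.96), *Mrpl21* (0.96) and *Cox6c-ps1* (0.95), of which the first encodes a subunit of cytochrome c oxidase and the second a mitochondrial ribosomal protein. Those most like the second were *Arhgef6* (0.91), *Rap2c* (0.90) and *Nup62* (0.89).

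*Fkbp5*, the feedback co-chaperone, varied most between rats among the induced genes, with an SD within groups of 0.97. The rats had 0.58, 1.18, -0.75 and -0.75 at 9 kBq, 1.27, -0.53, -2.09 and -0.60 at 88 kBq, and 0.05, -1.11, 2.03 and -0.75 at 170 kBq. They had -1.31, -1.57, 0.18 and 0.17 at 260 kBq, 0.28, 0.94, 0.56 and -0.38 at 340 kBq, and -0.59, -1.03, -1.56 and -0.92 at 760 kBq. At 1300 kBq they had 0.03, 0.30, -1.34 and -0.89, at 4700 kBq -0.29, -1.56, 0.72 and -0.90, and in the controls -1.23, 0.62, -0.38 and -1.24. Every group overlapped the controls, and a single group such as 170 kBq spanned most of the range. The group means lay between -1.03 at 760 kBq and 0.35 at 340 kBq, and the largest difference from the controls was 0.91 at 340 kBq (0.60 relative to the median probe, standard error 0.67, exact permutation p = 0.2). The slope over the order was -0.07 (standard error 0.05, adjusted p = 0.694 by limma). It was -0.003 with the follicular and lymphoid lists as covariates, -0.04 without the 3 lymphoid-rich arrays and -0.04 without rat 1 at 88 kBq.

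*Zbtb16*, the PLZF gene, had group means from -4.34 ± 0.88 (SD, n = 4) at 760 kBq to -2.95 ± 0.53 at 340 kBq, with -4.08 ± 0.59 in the controls. At 340 kBq the 4 rats had -2.77, -2.35, -3.09 and -3.59, and 3 of them lay above all controls, which had -3.78, -4.36, -3.43 and -4.76. The log2 difference of 1.13 (0.83 relative to the median probe) was the largest of all 56 member differences (standard error 0.59, limma's unadjusted p = 0.0647, exact permutation p = 0.0571). At 340 kBq, 13.2% of all probes were higher than the controls at an unadjusted p-value under 0.05, and 3 of the 4 arrays of that group lay below the gap of the follicular list. The slope over the order was -0.03 (standard error 0.05), and that over the rank of activity was 0.01 (standard error 0.05).

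*Tsc22d3*, the GILZ gene, had group means between 1.22 ± 0.38 at 760 kBq and 1.97 ± 0.76 at 1300 kBq, with 1.58 ± 0.40 in the controls (SD, n = 4 each). Its differences from the controls lay between -0.37 at 760 kBq and 0.39 at 1300 kBq (0.17 relative to the median probe) with a standard error of 0.40, and the slope over the order was 0.00 (standard error 0.03). *Sgk1*, the kinase gene, had group means between -1.43 ± 0.41 at 260 kBq and -0.61 ± 0.20 at 9 kBq, with -1.04 ± 0.35 in the controls. Its differences lay between -0.39 and 0.43 with a standard error of 0.35, and its slope over the order was -0.03 (standard error 0.03). For neither gene did a step between neighbouring group means exceed the SD within groups.

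Between rats, the members other than *Klf9* were lower where the follicular signal was higher. In a limma fit with 1 mean per group and the follicular and lymphoid lists as covariates, chosen after the values had been seen, 6 of the 7 member probes were lower with more follicular signal at an adjusted p-value under 0.05, beside 31.8% of all probes that were lower and 22.8% that were higher. The slope per unit of the follicular list was -0.22 for *Zbtb16* (standard error 0.03, adjusted p = 3.96e-06), -0.17 for *Fkbp5* (0.04, 0.000799), -0.14 for *Tsc22d3* (0.02, 5.42e-06) and -0.10 for *Sgk1* (0.02, 0.000494). It was -0.20 and -0.14 for the *Nr3c1* probes (adjusted p = 0.0157 and 6.84e-07 by limma) and -0.02 for *Klf9* (standard error 0.03, adjusted p = 0.51). On the 18 arrays above the gap, *Tsc22d3* ranged from 0.72 to 1.73 with a median of 1.32, and on the 18 below it from 1.32 to 2.81 with a median of 1.99. *Zbtb16* had medians of -4.32 above and -3.10 below the gap, and *Klf9* of 1.53 and 1.45. *Fkbp5* had -1.01 and 0.18, and *Sgk1* -1.33 and -0.83. The *Nr3c1* probes had -5.42 and -4.26 (first) and -5.22 and -4.45 (second). The lowest *Klf9* values at 9, 88 and 170 kBq came from arrays at 5.96, 5.79 and 6.06 for the squamous list. Control rat 3, the highest control for *Klf9*, stood at 4.22, and rats 3 and 4 at 260 kBq (*Klf9* 1.44 and 1.49) at 5.26 and 4.02. The relation of *Klf9* to that list by itself was not tested.

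The relation did not have 1 form on both sides of the gap. Here a plain line was fitted to the arrays of each side, without group means and without the lymphoid list. These slopes are therefore not the same measure as those above. Within the 18 arrays above it, the slope of *Fkbp5* was -1.72 (standard error 0.25), and without the lymphoid-rich arrays -1.40 (standard error 0.24). Within the 18 below, it was 0.11 (standard error 0.20). Above the gap, *Zbtb16* had -0.63 (standard error 0.29) with all arrays and -1.25 (standard error 0.31) without the lymphoid-rich ones, and below it -0.08 (standard error 0.14). *Tsc22d3* had -0.36 (standard error 0.16) above, -0.64 (standard error 0.16) there without the lymphoid-rich arrays, and -0.12 (standard error 0.11) below. The order of steepness above the gap thus depended on those arrays, except that *Fkbp5* had the steepest slope both with and without them. *Sgk1* had -0.71 above and -0.54 there without the lymphoid-rich arrays, and -0.14 below. The second *Nr3c1* probe had -0.49, -0.50 and 0.03 in the same order, the first 0.15, 0.14 and -0.16, and *Klf9* -0.01, -0.12 and 0.03. These slopes within sides are given as descriptions.

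**Figure D3:**
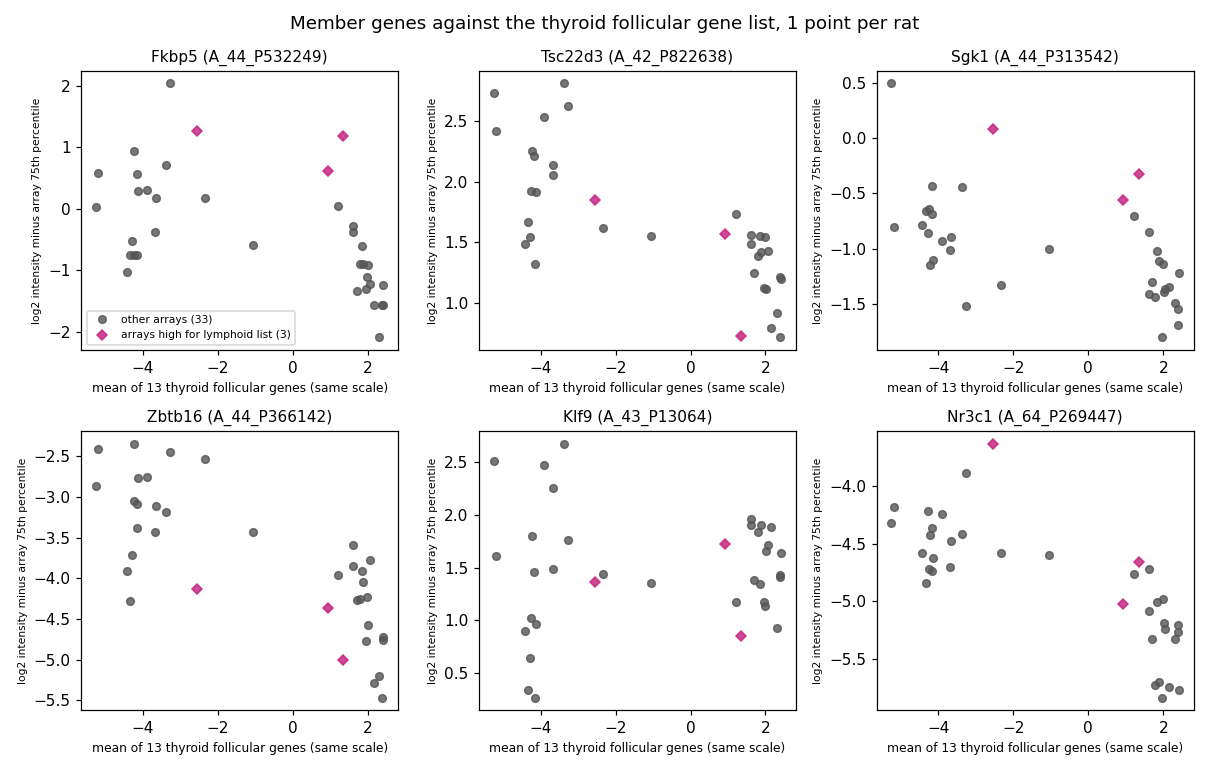
Log2 intensity minus the array's 75th percentile of 6 member probes (vertical axes) against the mean of 13 thyroid follicular genes on the same scale (horizontal axes), with 1 point per rat and diamonds for the 3 arrays high for the lymphoid list. The arrays fall on both sides of an empty stretch from -1.06 to 0.93. To the right of it, the medians of all probes shown except Klf9 are lower. The medians of Klf9 are 1.45 to the left and 1.53 to the right. Its values range more widely to the left (0.27 to 2.67) than to the right (0.86 to 1.96).

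The lymphoid list moved with *Fkbp5* as well. In the same fit its slope was 0.25 for *Fkbp5* (standard error 0.05, adjusted p = 0.00171 by limma), 0.10 for *Sgk1* (adjusted p = 0.0187) and 0.08 for the second *Nr3c1* probe (adjusted p = 0.0345), beside 7.63% of all probes that were higher and 3.91% that were lower, and these values rest mainly on 3 arrays. On those arrays *Fkbp5* was between 0.62 and 1.27, and 3 of the other 33 arrays lay above 0.62. The highest *Fkbp5* value of all, 2.03 in rat 3 at 170 kBq, came from an array at -7.70 for the lymphoid list and -3.28 for the follicular list. The genes most like *Fkbp5* were *Slc16a10* (r = 0.89), an amino acid transporter gene, *Rftn1* (0.87), which encodes a lipid raft protein of lymphocytes, and *Satb1* (0.87), a chromatin organizer gene known from thymocytes. Without the 3 arrays, 0 members were called in any comparison, by the F test or for any slope.

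Some members also followed each other between rats. Over the 36 arrays, *Tsc22d3* and *Zbtb16* correlated with r = 0.85, and *Fkbp5* with the second *Nr3c1* probe with r = 0.77 and with *Tsc22d3* with r = 0.66. *Klf9* and *Tsc22d3* had 0.47 over all arrays, 0.62 after subtraction of the group means and 0.83 after the follicular and lymphoid lists had been fitted as well. *Sgk1* and *Klf9* had 0.02. All these values share the same arrays and tissue makeup and are given without a test. The genes most like *Tsc22d3* were *Tmem126b*, *Ppp1cb* and *Uqcc2* (r = 0.96 each), those most like *Zbtb16* were *Dtnbp1*, *Mpdz* and *Optn* (r = 0.94 each), and those most like *Sgk1* were *H2az1*, *Sike1* and *Polr2h* (r = 0.82 to 0.83).

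Among 26 other genes induced by glucocorticoids, 0 were called in a comparison or a trend. At an unadjusted p-value under 0.05, 2 had a slope above 0 over the order of injection (*Klf15* and *Nedd9*) and 0 a slope below 0, and the median slope was 0.03, beside 0.00 for all probes. Of all probes, 3.87% had a slope above 0 and 6.16% a slope below 0 at that limit. Against the controls, 12 of the 208 gene comparisons were lower at that limit and 1 was higher (*Hif3a* at 170 kBq), all of them against the same 4 control rats. The lower ones were *Cebpd* in every group except 4700 kBq, *Rgs2* at 88 kBq, *Ddit4* and the metallothionein gene *Mt1* at 340 kBq, and *Mt2A*, another metallothionein gene, at 340 and 1300 kBq. At 340 kBq this made 4 of 26 genes lower and 0 higher, where 0.438% of all probes were lower and 13.2% higher. Over the 8 comparisons, 0.148% to 0.454% of all probes were lower and 0.787% to 13.2% were higher. The median difference of the list lay below 0 in 7 of the 8 groups, between -0.33 and -0.02, and was 0.09 at 340 kBq, while the median probe lay above 0 in all 8 groups. *Klf15*, a Krüppel-like regulator of metabolism, had group means from 0.14 ± 0.70 at 88 kBq to 1.26 ± 1.01 at 4700 kBq and 0.73 ± 0.43 in the controls (SD, n = 4). Over the 8 irradiated groups its slope was 0.15 (standard error 0.04, unadjusted p = 0.00558, adjusted p = 0.338 by limma). *Cebpd*, a transcription factor of the acute phase, had the smallest p of the list, at 760 kBq, with a mean of 1.47 against 2.96 in the controls (log2 difference -1.48, standard error 0.35, unadjusted p = 0.000228, adjusted p = 1 by limma). *Rgs2*, a regulator of G protein signalling, was at 0.84 at 88 kBq against 1.79 in the controls (adjusted p = 1 by limma), and *Ddit4*, an inhibitor of mTOR signalling, was at -0.07 at 340 kBq against 0.88 (log2 difference -0.95, -1.26 relative to the median probe, adjusted p = 0.291 by limma).

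Among 12 genes of receptor partners and hormone metabolism with a probe, 0 were called either. At an unadjusted p-value under 0.05, 1 had a slope below 0 over the order (*Nrip1*, a nuclear receptor corepressor gene) and 0 a slope above 0, with a median slope of -0.02. Of all probes, 6.16% had a slope below 0 and 3.87% a slope above 0 at that limit. Against the controls, 4 of 96 gene comparisons were higher at that limit (*Nrip1* at 9 kBq and *Ncoa2* at 88, 170 and 340 kBq) and 0 were lower. Over all probes, 0.787% to 13.2% per comparison were higher at that limit and 0.148% to 0.454% were lower. *Ncoa2*, a coactivator gene, was at -3.68 at 170 kBq against -4.50 in the controls (log2 difference 0.83, 0.71 relative to the median probe, adjusted p = 0.996 by limma), and *Nrip1* at 0.33 at 9 kBq against -0.57 (adjusted p = 0.999). *Hsd11b2*, which encodes the enzyme that inactivates the hormone, had a slope of -0.22 over the irradiated groups (standard error 0.10, adjusted p = 0.454 by limma). *Nr3c2*, the mineralocorticoid receptor gene, was at -1.35 at 9 kBq against -0.66 (adjusted p = 0.999).

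**Figure D4:**
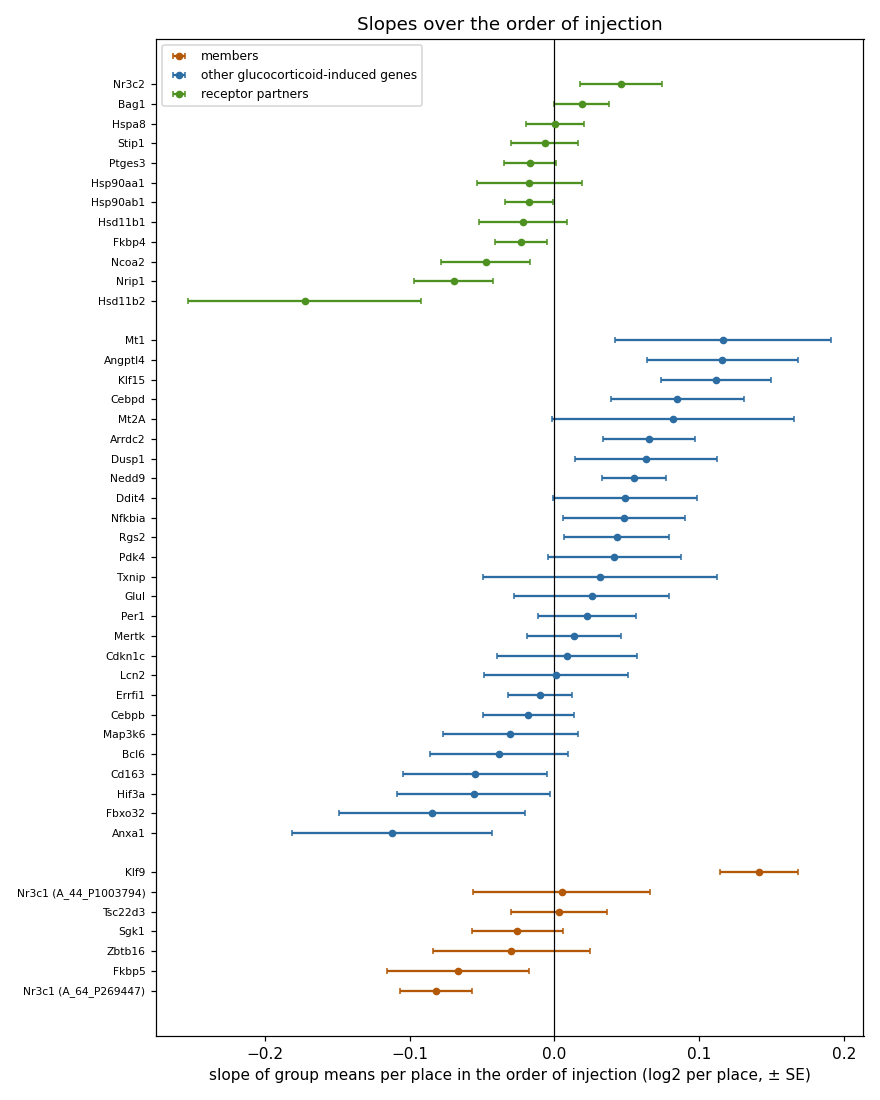
Slope of the 9 group means per place in the order of injection (horizontal axis, log2 units per place, with standard error) for the 7 member probes, 26 other glucocorticoid-induced genes and 12 receptor partners, 1 point per probe. Klf9 lies at 0.14, apart from the other members, which lie between -0.08 and 0.01.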

How the data were processed

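RNA of individual thyroids was hybridised to 1-colour Agilent SurePrint G3 Rat arrays. Per the file headers, Agilent's Feature Extraction software subtracted background and spatial trend from each spot's intensity; the deposited scanner intensities were not normalized between arrays. The matrix deposited by the authors holds intensities on a linear scale, equal in distribution over the 36 arrays, and was used as an alternative after log2. The submitters' processing notes name Partek, with no steps.

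Spots of control probes were removed, as were 331 to 1365 outliers per array, the 75th percentile (1564 to 4288) was subtracted from log2 intensity, and spots of a probe were averaged. 0 spots were saturated, 62.7% to 91% of probes lay well above background, and 99 probes lacked a value on at least 1 array and were fitted on the rest. At 340 kBq, rat 1 had the most outliers (1365) and the lowest 75th percentile. In the same group, rat 4 had the share of 91%, and the next highest share was 79%, in rat 2 at 9 kBq. The number of arrays limits the precision. Probes were named through RefSeq or Ensembl accessions in a table of build GRCr8, which matched 17998 of 30367 probes. limma 3.58.1 in R 4.3.3 fitted 1 mean per group, with Benjamini-Hochberg adjustment within each comparison. Slopes were fitted to group means, with exact permutation of these (362880 orders of 9 means; numpy 2.4.6, scipy 1.17.1). The methods name Nexus Expression for the tests, with the same limits. The scripts were tested on simulated data.

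The members and lists were chosen with earlier results of these data known. All member probes are named. From each further list, genes with an adjusted p under 0.05 were to be named or, with fewer than 4 of these, the 4 with the smallest p, and *Nedd9*, *Hif3a*, *Mt1* and *Mt2A* were named in addition, as parts of counts, after their values were seen. For likeness, the 3 genes with the highest correlation per probe are named, except 1 for *Klf9* that is not reported here. Lists beyond those in the text (C cells, parathyroid, fast muscle, cartilage, airway, erythroid, myeloid and endothelial cells) had slopes of their group means over the order of 0.32, 0.30, 0.05, -0.15, -0.04, 0.11, -0.03 and 0.01, and adipose and slow muscle 0.13 and 0.00. Nothing in the labels ties the rats beyond their groups. The p-values of the comparisons and of the F test measure the spread between single rats within groups. Those of the slopes fitted to group means measure the scatter of these means about a line. The methods do not say whether the 4 rats of a cage formed 1 group. Alternatives were quantile or median normalization, a normexp background (planned on mean, run on median intensities), the authors' matrix, a filter on dim probes, slide, scan day or rat number as blocks, tissue lists as covariates, other fits and thresholds, and each rat left out. The covariate pair of follicular and lymphoid lists and the omission of the 3 lymphoid-rich arrays were added after the data were seen.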

Additional observations from a re-analysis of the deposited data

Results flagged for a closer look

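In 2 of the 63 groups of 4 values (7 probes in 9 groups), a single rat lay far from the other 3 by Dixon's ratio, and chance alone marks about 1 group in 20. Both were *Klf9*. At 4700 kBq, rat 3 had a *Klf9* value of 2.67, while the other 3 rats lay between 1.89 and 1.96. In the controls, rat 3 had 2.26, while the other 3 lay between 1.63 and 1.73. Both arrays lay below the gap of the follicular list, at -3.37 and -3.68.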

How the results depend on the processing

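The count of members called against the controls, by the F test, and for slopes over the rank and over the 8 irradiated groups was 0 under every alternative run, and that for the order of injection was 0 except with 36 arrays as units and the group as a random block, where it was 1 (*Klf9*, adjusted p = 0.00347) and 85 of all probes passed in place of 4. Over all probes, calls against the controls numbered 0 in the reported fit and 0 to 12 under the other alternatives, except for 390 with array weights. With each rat left out in turn all 5 counts ranged from 0 to 0. The *Klf9* slope over the order stayed above 0 under all 52 alternatives, between 0.13 and 0.18, with adjusted p-values of 0.00347 to 0.995. Its difference from the controls at 9 kBq lay between -1.09 and -0.67, with adjusted p-values of 0.0166 (array weights) to 1. The slopes of 4 probes, all near 0 in the reported fit and never called, changed sign, and the cause was not tested. That of *Nr3c1* A_44_P1003794 was -0.000616 with normexp, -0.0109 without the first 2 groups, -0.00952 without the first and the last group and -0.0149 without the lymphoid-rich arrays, and -0.0209 to 0.0378 with a rat left out. *Tsc22d3* had -0.00269 with quantile normalization, -0.0132 without the first 2 groups and -0.0113 without the lymphoid-rich arrays, and -0.0180 to 0.0193 with a rat left out. *Sgk1* had 0.0355 without the first 2 groups, 0.00716 without the first and the last group and 0.00825 with the follicular and lymphoid lists. *Zbtb16* had 0.0110 with slide as a block, 0.0240 with 4 tissue lists, 0.0284 without the last 2 groups and 0.0295 with the follicular and lymphoid lists. Leaving out single rats aside, the alternatives put *Zbtb16* between -0.105 and 0.0295 and *Nr3c1* A_44_P1003794 between -0.0149 and 0.0982. They put *Sgk1* between -0.0510 and 0.0355 and *Tsc22d3* between -0.0132 and 0.0447. With rat number as a replicate block, the *Klf9* slope was 0.14 (adjusted p = 0.349) and 0 members were called. Same-numbered rats did not deviate together (mean correlation -0.05 to 0.00 by number), and the closest array of another group had the same number for 8 of 36 arrays.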
